A study of Mus musculus with 8 samples.

Results

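Interleukin-6 (IL-6), STAT3 and NF-kB signalling genes, a set of 10 that encode cytokines, receptors and regulators upstream of the acute phase response, were examined in the livers of ovariectomized (OVX) mice with and without white button mushroom (WBM) in the diet. The genes are Il6ra, Il6st, Stat3, Socs3, Il1b, Il1r1, Tnf, Nfkbia, Cebpb and Cebpd. A gene was measured where a row (a probe set) of the array names it alone, and the row with the highest mean over all arrays stood for it. By this rule 9 of the 10 genes were measured among 19938 genes, and Il1r1, the signalling receptor of interleukin-1, was not analysed here.

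All 8 mice were female C57B1/6J mice, ovariectomized at 7 weeks of age, and all received a high fat diet (HFD), which began a week after surgery and ran for 3 months. The control group of 4 mice had HFD alone, and the other group of 4 mice had HFD with WBM powder (HFD+WBM). Without ovaries the mice lack their main source of estrogen, and no array of a sham-operated mouse was analysed here, so that every value below belongs to the OVX state. RNA of whole liver from each mouse was put on an Affymetrix Mouse Gene 1.0 ST array of its own, and expression is given as deposited, in log2 units, so that a difference of 1 is a 2-fold change.
Markers of hepatocytes had a mean log2 value of 13.25 to 13.44 in every mouse, so that the defining genes of liver were present on each array. The array of HFD replicate 3 stood apart, where the standard deviation (SD) of its gene-wise distance from the remaining arrays was 0.68 and that of each other array 0.38 to 0.50.

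IL-6 binds its receptor chain, encoded by Il6ra, and the pair engages gp130, the shared signal transducer encoded by Il6st. Janus kinases bound to gp130 then phosphorylate STAT3, which enters the nucleus and induces acute phase genes in hepatocytes along with Socs3, whose protein shuts the same receptor complex off. Interleukin-1 beta (Il1b) and tumor necrosis factor (Tnf), made in liver largely by Kupffer cells, act through NF-kB, which is held in the cytoplasm by the inhibitor that Nfkbia encodes and which induces Nfkbia in turn. C/EBP beta and C/EBP delta (Cebpb, Cebpd) are transcription factors that act with STAT3 and NF-kB on acute phase promoters.

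Both feedback inhibitors are known targets of their own pathways, and the 250 bases before their start sites are shown for that reason, with those of Il6ra, the member that rose, beside them. Capitals mark matches to TTCNNNGAA, a STAT motif, or to an NF-kB motif (GGGA, any base, TTTCC), searched on both strands. The sequences are from RefSeq (GRCm38.p6) and run 5′ to 3′ on the strand of the gene, which is the minus strand for all 3.
Socs3, chr11:117969367-117969616: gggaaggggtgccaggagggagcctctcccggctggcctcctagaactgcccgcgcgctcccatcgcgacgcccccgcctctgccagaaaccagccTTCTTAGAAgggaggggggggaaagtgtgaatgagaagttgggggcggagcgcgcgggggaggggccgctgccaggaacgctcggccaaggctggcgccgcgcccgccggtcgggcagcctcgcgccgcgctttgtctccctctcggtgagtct
Nfkbia, chr12:55492648-55492897: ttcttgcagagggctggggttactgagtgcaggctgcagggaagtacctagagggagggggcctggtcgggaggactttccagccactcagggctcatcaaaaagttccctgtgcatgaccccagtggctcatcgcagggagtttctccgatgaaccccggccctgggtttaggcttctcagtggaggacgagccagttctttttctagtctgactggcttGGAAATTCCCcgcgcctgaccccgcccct
Il6ra, chr3:89913197-89913446: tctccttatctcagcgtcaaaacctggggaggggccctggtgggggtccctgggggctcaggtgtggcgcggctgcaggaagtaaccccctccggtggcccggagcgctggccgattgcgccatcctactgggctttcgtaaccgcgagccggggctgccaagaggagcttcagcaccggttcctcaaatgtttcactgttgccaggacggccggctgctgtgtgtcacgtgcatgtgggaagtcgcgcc
The STAT match of Socs3 lies 154 to 146 bases before the start and reads the same motif on both strands, and 7.02% of 32851 such windows of all genes hold this motif. The NF-kB match of Nfkbia lies 29 to 20 bases before the start on the opposite strand, and 0.356% of windows hold that motif. The Il6ra window holds neither, and of the 9 of 10 genes with an entry in the table, Socs3 and Nfkbia alone hold a match. A match is a run of letters and does not show that a factor is bound there.

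Of the 9 measured genes, Il6ra alone was higher with HFD+WBM, none was lower and 8 did not pass. The test was that of limma across all genes, at p under 0.05 before adjustment. Socs3 is counted here by the brighter of its 2 rows. Its other row passed as higher (limma p of 0.018 before adjustment), as given below. By the same test 4.85% of all genes were higher and 6.90% were lower, and 1 of 9 and 0 of 9 are too few to be read against those shares. No member changed by 2-fold or more, a threshold that the study added to p and that 0.266% of all genes passed as higher and 0.497% as lower. No gene of the array passed a Benjamini-Hochberg adjusted p under 0.05 by limma, with 2341 genes under 0.05 before adjustment, and an equal-variance test of each gene by itself also gave 0. Other limma settings did give adjusted calls over all genes, 139 when the prior variance was allowed to follow the level, 80 where 64 was added to the linear values, 19 in the brighter 50% of genes and 2 where 16 was added. The 4 values of a diet did not lie wholly on one side of the other 4 for any member, while 3.21% of all genes were separated in this way as higher and 5.02% as lower (8.23% in all). The estimates of the 9 genes ran from -0.40 to 0.74 (log2, HFD+WBM minus HFD) with a median of 0.10, against a median of 0.01 over all genes.

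**Figure D1:**
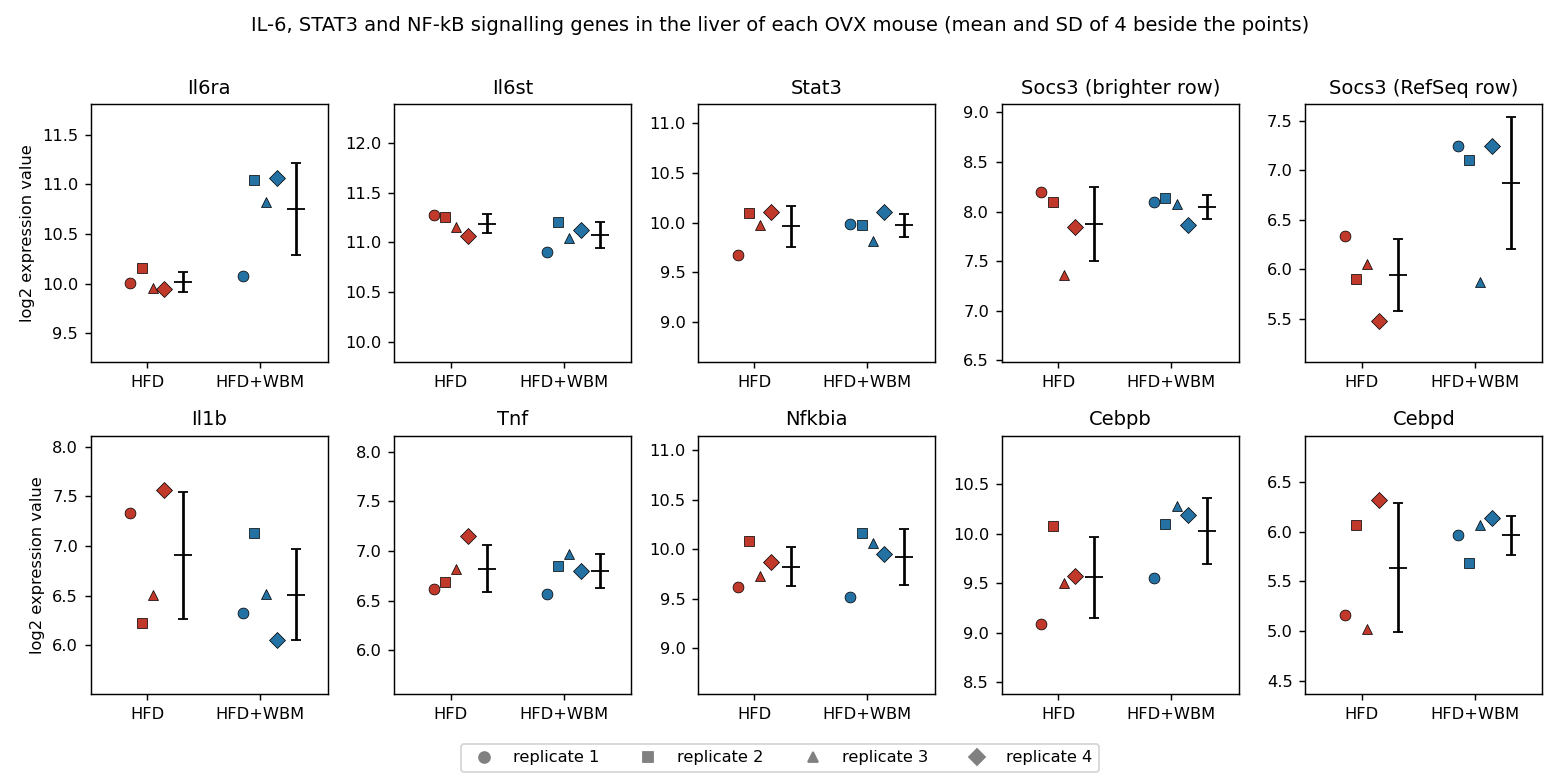
Log2 expression values (vertical axes, all of the same height in log2 units) of the 9 measured genes by mouse. Red is HFD, blue is HFD+WBM, the marker shape is the replicate number, and the bars give mean and SD of each diet; Socs3 is shown by both of its rows. Il6ra is between 10.83 and 11.07 in 3 of the 4 HFD+WBM mice and at 10.07 in HFD+WBM replicate 1, within the HFD range.

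The IL-6 receptor chain was the member that rose. Il6ra was 10.01, 10.16, 9.96 and 9.94 (log2 value) in HFD replicates 1 to 4, and 10.07, 11.05, 10.83 and 11.07 in HFD+WBM replicates 1 to 4. HFD+WBM replicates 2, 3 and 4 lay above every HFD mouse, and replicate 1 lay between HFD replicates 1 and 2. The mean rose from 10.02 ± 0.10 (SD, n = 4) to 10.75 ± 0.47 (SD, n = 4), which is 1.66-fold higher with a 95% interval of 1.17 to 2.36. The log2 difference was 0.74 (standard error 0.23), with a limma p of 0.0091 before adjustment and an adjusted p of 0.37 over all genes. The two-sided exact permutation test gave p = 0.057, where 0.029 is the smallest value that 4 mice against 4 allow. Without HFD+WBM replicate 1 the log2 difference was 0.96, and in the other leave-one-out fits it was not below 0.63.

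The transducer chain and the transcription factor of the pathway had small estimates. Il6st ran from 11.07 to 11.28 (log2 value) in the HFD mice and from 10.90 to 11.21 in the HFD+WBM mice, with a log2 difference of -0.12 and a 95% interval of -0.43 to 0.19. Stat3 ran from 9.67 to 10.11 in the HFD mice and from 9.82 to 10.11 in the HFD+WBM mice. Its log2 difference was 0.01 with a 95% interval of -0.34 to 0.35, so that a change of Stat3 RNA beyond 1.28-fold in either direction lies outside the interval. The ranges of the diets overlapped for both genes. The array measures RNA, and the phosphorylation that activates STAT3 is not part of these data.

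The 2 rows of Socs3, the feedback inhibitor, gave different answers. The brighter row (10383010), which stands for the gene under the rule, is annotated with a single GenBank entry, while the dimmer row (10393449) is annotated with the RefSeq transcript of Socs3. On the brighter row the HFD mice were at 8.20, 8.09, 7.36 and 7.84 (log2 value) and the HFD+WBM mice at 8.09, 8.14, 8.08 and 7.86. Here all HFD+WBM mice lay within the HFD range, and the log2 difference was 0.17 (95% interval -0.27 to 0.61).
On the RefSeq row the HFD mice were at 6.34, 5.91, 6.06 and 5.48 and the HFD+WBM mice at 7.24, 7.11, 5.88 and 7.25. HFD+WBM replicates 1, 2 and 4 lay above every HFD mouse, and replicate 3 lay among the HFD mice. That row was 1.89-fold higher, with a log2 difference of 0.92 (95% interval 0.19 to 1.65), a limma p of 0.018 before adjustment and an adjusted p of 0.38. The two-sided exact permutation test gave p = 0.11. The limma call was lost without HFD replicate 4, HFD+WBM replicate 1 or HFD+WBM replicate 4 (0.052 to 0.053 before adjustment) and in the equal-variance test of the gene by itself (0.051).
The mouse that stayed low on this row, HFD+WBM replicate 3, was not the one that stayed low for Il6ra. Without HFD replicate 3, the array that stood apart, the log2 difference of the brighter row was 0.00. With the mean of both rows in place of the brighter one, Socs3 was higher by 0.55 (log2, limma p of 0.027 before adjustment).

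**Figure D2:**
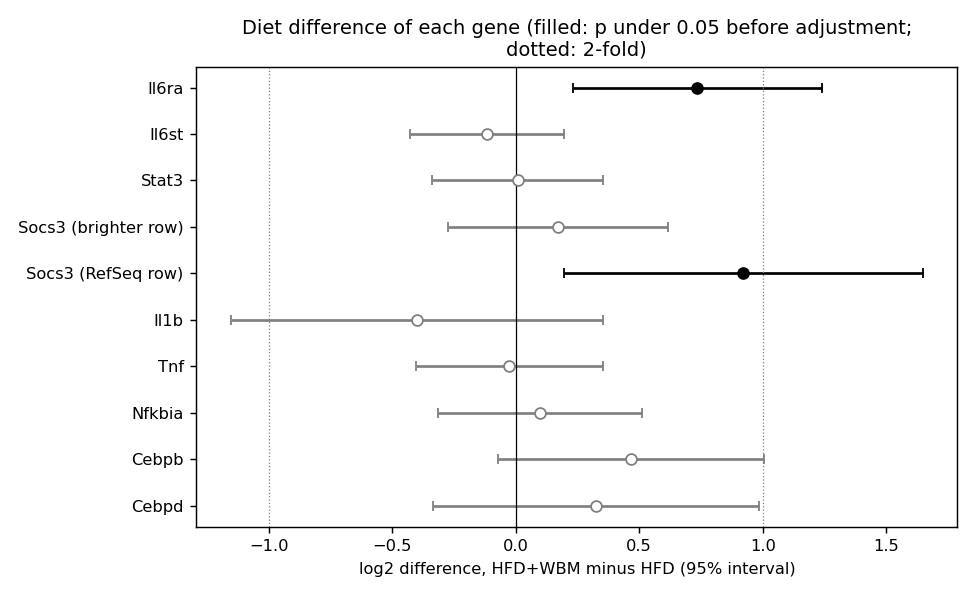
Log2 difference of each gene, HFD+WBM minus HFD (horizontal axis), with the 95% interval of limma as the bar; filled points have p under 0.05 before adjustment and dotted lines mark 2-fold. Il6ra at 0.74 and the RefSeq row of Socs3 at 0.92 are the filled points, and the intervals of all others cross 0.

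The cytokine members did not pass. Il1b was 7.33, 6.23, 6.50 and 7.56 (log2 value) in HFD replicates 1 to 4 and 6.33, 7.13, 6.52 and 6.05 in HFD+WBM replicates 1 to 4. HFD replicates 1 and 4 were the 2 highest mice, and the other HFD mice lay among the HFD+WBM mice. The log2 difference was -0.40 with a 95% interval of -1.15 to 0.36, which leaves room for a fall of more than 2-fold. The estimate moved with single mice, to -0.18 when HFD replicate 4 was left out, -0.26 for HFD replicate 1 and -0.25 for HFD+WBM replicate 4. It moved the other way, to -0.63, when HFD replicate 2 was left out and to -0.61 for HFD+WBM replicate 2, and it passed in none of these fits. Tnf ran from 6.61 to 7.15 in the HFD mice and from 6.57 to 6.97 in the HFD+WBM mice, with a log2 difference of -0.03 (95% interval -0.40 to 0.35).
Markers of the cells that make much of these cytokines were lower in the same livers. Of 16 measured markers of Kupffer cells and other macrophages, 12 fell at p under 0.05 before adjustment (75% against the 6.90% of all genes) and none rose (median log2 difference -0.66), among them C1qc (1.74-fold lower), Cd68 (1.68-fold) and Lyz2 (1.69-fold). The mean log2 value of the 16 markers was 8.59 to 9.16 in the HFD mice and 8.07 to 8.60 in the HFD+WBM mice, and no value of a marker was at 0. In RNA of whole liver, fewer cells of a type and less RNA per cell cannot be told apart. Whether the macrophage markers bear on the values of Il1b and Tnf was not tested.

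Nfkbia, the NF-kB inhibitor, had a small estimate, and the C/EBP genes had estimates above 0 that did not pass. Nfkbia was 9.62, 10.08, 9.72 and 9.87 (log2 value) in the HFD mice and 9.52, 10.16, 10.06 and 9.95 in the HFD+WBM mice, with the lowest and the highest mouse both on HFD+WBM. Its log2 difference was 0.10 (95% interval -0.32 to 0.51).
Cebpb was 9.09, 10.08, 9.50 and 9.58 in the HFD mice and 9.55, 10.09, 10.28 and 10.18 in the HFD+WBM mice. HFD+WBM replicates 2, 3 and 4 were the 3 highest of all mice, and HFD+WBM replicate 1 lay within the HFD range, as for Il6ra. The log2 difference of Cebpb was 0.47 (95% interval -0.07 to 1.01, limma p of 0.082 before adjustment). Leaving out HFD+WBM replicate 1 gave 0.63 and leaving out HFD replicate 2 gave 0.64, each past p under 0.05. Leaving out HFD replicate 1 gave 0.31 (limma p of 0.22 before adjustment) and leaving out HFD+WBM replicate 3 gave 0.38 (0.18). Cebpd ran from 5.02 to 6.32 in the HFD mice and from 5.69 to 6.14 in the HFD+WBM mice, so that every HFD+WBM mouse lay within the HFD range, and its log2 difference was 0.33 (95% interval -0.34 to 0.99).

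The pair of members with the highest correlation was Nfkbia and Cebpb. Over the 8 mice Pearson's r was 0.83 (permutation p = 0.014) and Spearman's rho was 0.74 (permutation p = 0.046), and r was 0.81 without the 2 mice farthest from the median of Nfkbia. With the diet means removed r was 0.89 (exact permutation within diets, p = 0.012). Adjusted over the 36 pairs of members the p of r was 0.47, that of rho was 0.73 and that with diet means removed was 0.25, so that no pair passed. The values of Il6ra fell into 2 clusters, 3 HFD+WBM mice at 10.83 or more and 5 mice at 10.16 or less, so no correlation is given for it. In the high cluster Cebpb was 10.09 to 10.28, and in the other 5 mice it was 9.09 to 10.08. These ranges nearly met, at HFD+WBM replicate 2 (10.09) and HFD replicate 2 (10.08). The high cluster holds HFD+WBM mice only, so that these ranges cannot show a link of Il6ra and Cebpb apart from diet.
The mice did not differ evenly over the 9 genes. HFD+WBM replicate 1 was the lowest of its diet for 5 genes, Il6ra, Il6st, Tnf, Nfkbia and Cebpb, and the highest for none. Other mice were nearly as uneven. HFD replicate 1 was the lowest of its diet for 4 genes, and HFD replicate 4 and HFD+WBM replicate 2 were each the highest of theirs for 4. HFD replicate 3 was also the highest for none.

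**Figure D3:**
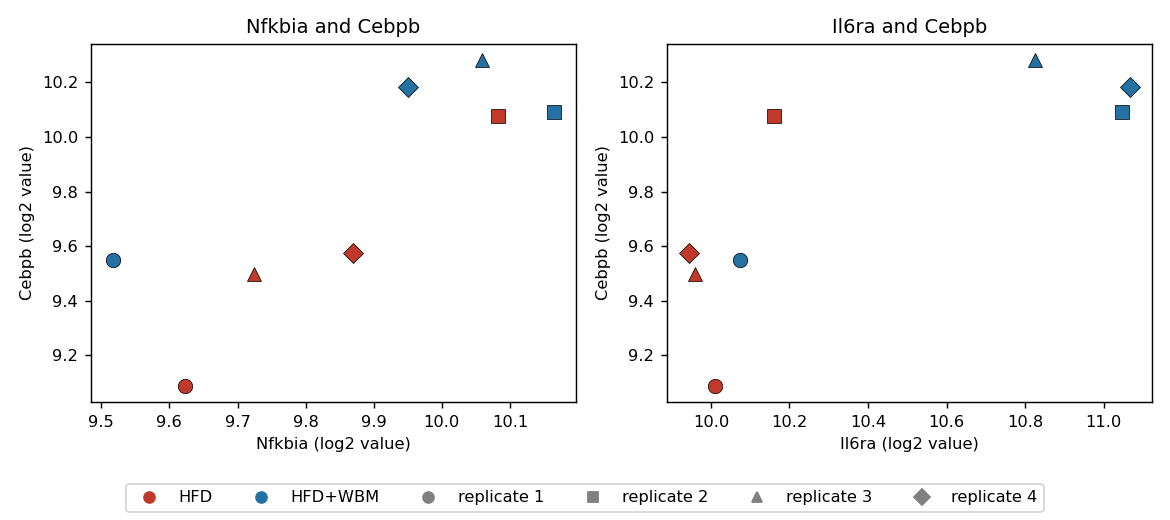
Log2 values of Cebpb (vertical axes) against those of Nfkbia (left) and of Il6ra (right) by mouse, where red is HFD, blue is HFD+WBM and the marker shape is the replicate number. HFD+WBM replicate 1 (blue circle) lies with the lower HFD mice in both plots, and the other 3 HFD+WBM mice have Cebpb between 10.09 and 10.28.

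The rest of the pathway also showed few differences between the diets. Of 73 other measured genes of IL-6, STAT3, C/EBP and NF-kB signalling, grouped by role, 5 were lower and 1 was higher at p under 0.05 before adjustment, 6.85% and 1.37% against the 6.90% and 4.85% of all genes. Their median log2 difference was -0.04. No gene of the 73 changed by 2-fold or more. The number lower was 3 without HFD replicate 1, and the number higher was 0 without HFD replicate 3 and 3 without HFD replicate 2.
Among 14 other ligands, Il1a, which encodes interleukin-1 alpha, was 1.70-fold lower (limma p of 0.016 before adjustment, adjusted p of 0.38) and was the one that passed. Il6 itself ran from 4.00 to 5.03 (log2 value) in the HFD mice and from 4.47 to 5.18 in the HFD+WBM mice, with a log2 difference of 0.41 (standard error 0.25) that did not pass. Neither did Lif, a cytokine that also signals through gp130 (log2 difference 0.45), or Tnfsf10, the death receptor ligand TRAIL (-0.43). No detection calls were used here, so that whether the ligands stand above background on these arrays is not known.

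Among the receptors, the adaptors and the genes that act after them few passed, too few to read their shares against those of all genes. The shares lower were 10% of receptors and adaptors, 5.26% of NF-kB genes and 5.88% of JAK-STAT genes, against 6.90% of all genes. The share higher was 5.26% of NF-kB genes and 0% of receptors and adaptors, of JAK-STAT genes and of C/EBP genes, against 4.85% of all genes. Over all genes the diets did not overlap for 5.02% as lower and 3.21% as higher. Of 20 other receptors and adaptors, Tradd, the adaptor of the TNF receptor, was 1.36-fold lower, and the diets did not overlap (6.94 to 7.23 with HFD+WBM, 7.41 to 7.63 with HFD). Ticam1, the TRIF adaptor of Toll-like receptors, was also 1.36-fold lower with overlapping groups. Cd14, the co-receptor for lipopolysaccharide and a macrophage marker, had a log2 difference of -0.50 and did not pass. Of 19 kinases, subunits and inhibitors of the NF-kB pathway, Ikbke, an IkB kinase-related kinase, was lower by a log2 difference of -0.85, and Map3k14, the kinase of the non-canonical pathway, was 1.28-fold higher with no overlap. Rela, the main activating subunit of NF-kB, had a log2 difference of 0.24 (standard error 0.15) and did not pass.
Of 17 other genes of JAK-STAT signalling, Stat5a, one of the STATs of cytokine and growth hormone receptors, was 1.32-fold lower with no overlap. Ptpn6, the phosphatase SHP-1 (log2 difference -0.29), and Cish, a feedback inhibitor of STAT5 signalling (0.51), did not pass. Of 3 other C/EBP genes none passed, with log2 differences of 0.39 for Ddit3, -0.06 for Cebpg and 0.03 for Cebpa. The adjusted p of each gene named in this paragraph was 0.37 or more.

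The acute phase genes that lie downstream of these regulators were lower in part. Of 23 measured acute phase genes, 8 fell at p under 0.05 before adjustment (34.8% against the 6.90% of all genes) and none rose, with a median log2 difference of -0.19. The largest falls were those of Lcn2, the siderophore-binding lipocalin 2 (2.74-fold), and of Saa1 (2.57-fold) and Saa2 (2.39-fold), which encode serum amyloid A proteins. Orm1 (1.40-fold) and Orm2 (1.69-fold), which encode orosomucoids, Apcs, the amyloid P component (1.65-fold), Itih3, an inter-alpha-trypsin inhibitor chain (1.25-fold), and Cp, ceruloplasmin (1.24-fold), complete the 8. In 7 of them every HFD+WBM mouse lay below every HFD mouse, and Orm2 was the one that overlapped, where 5.02% of all genes were separated as lower. These 7 were counted among genes that had already passed the test, which favours separation. The other 15 acute phase genes did not pass. Among them were Saa3 (log2 difference -0.41) and Saa4 (0.08), also serum amyloid A genes. The fibrinogen genes Fga (0.01), Fgb (-0.01) and Fgg (-0.01), haptoglobin (Hp, -0.04) and hepcidin (Hamp, 0.15) were among them too. Over the 23 genes the estimate was below 0 for 17 and above 0 for 6.
HFD+WBM replicate 1, whose Il6ra value lay among the HFD mice, had an Lcn2 value of 8.04 and a Saa1 value of 5.89. Both genes are among the 7 separated ones, so that a value below every HFD mouse was already given by that choice. For Apcs, also among the 7, HFD+WBM replicate 1 was at 10.37, just under the HFD range of 10.40 to 10.51. The other 3 HFD+WBM mice were at 9.36 to 9.68 for Apcs. Whether the acute phase values bear on those of Il6ra was not tested. Saa1 and Saa2 are near-identical copies, so that their signals may not be separate. Without HFD replicate 1 or without HFD+WBM replicate 1 the count was 5 in place of 8. The adjusted p of the 8 genes was 0.35 to 0.41 by limma. With the prior variance that follows the level it was 0.00072 for Lcn2, 0.0020 for Saa2 and 0.030 for Saa1, and where 64 was added to the linear values it was 0.0018, 0.0063 and 0.039, each under 0.05. In the brighter 50% of genes it was 0.038 for Lcn2 and 0.045 for Saa2.

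**Figure D4:**
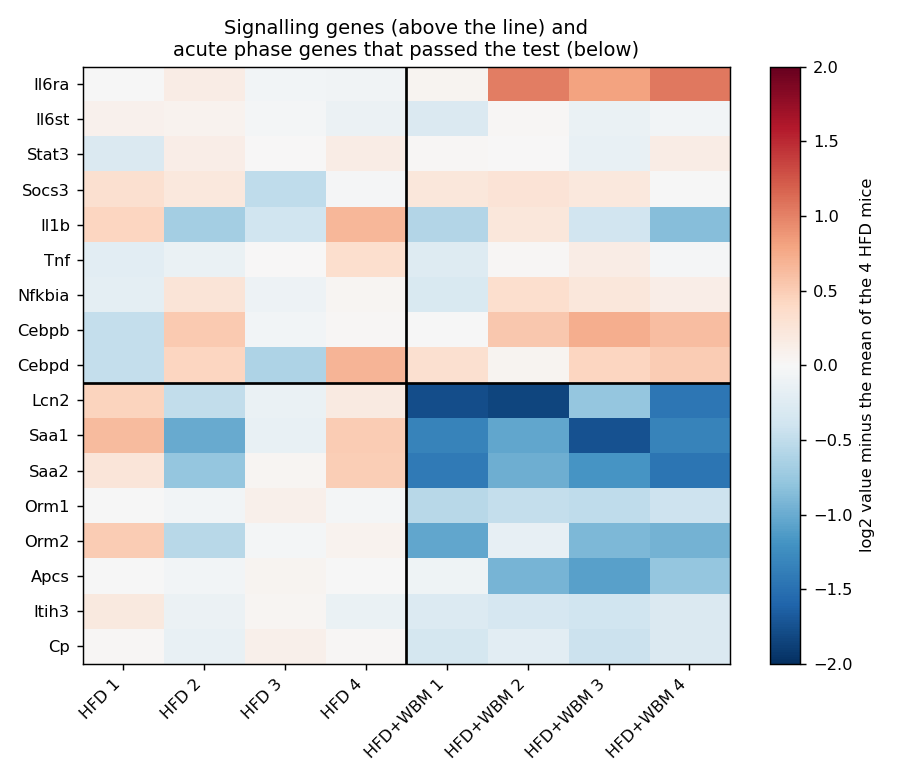
Log2 value minus the mean of the 4 HFD mice (colour scale from -2 to 2) for the 9 signalling genes, with Socs3 by its brighter row, and for the 8 acute phase genes with p under 0.05 before adjustment, in each mouse. The acute phase genes below the line were shown because they passed, and they are below 0 in all HFD+WBM mice. Of the signalling genes Il6ra is red in HFD+WBM replicates 2, 3 and 4. Cebpb and Nfkbia are also above 0 in these mice, and Cebpd is above 0 in all HFD+WBM mice, though none of these others passed.

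Of 20 other genes that STAT3 and NF-kB induce, 2 rose (10% against 4.85%) and none fell. These were Gadd45b, a stress-response gene (3.19-fold, with no overlap), and Junb, an AP-1 factor (1.58-fold), and Pim1, a kinase induced by STAT3, had a log2 difference of -0.63 that did not pass.
Genes that respond early to many stimuli had estimates above 0 in 13 of 17 cases (10110 of 19938 over all genes), with a median log2 difference of 0.51. Of these Junb, Jun (2.14-fold) and Zfp36 (1.42-fold), which encodes a protein that destabilizes cytokine messages, rose at p under 0.05 before adjustment, 17.6% against the 4.85% of all genes. The mean log2 value of the 17 genes was 7.76 to 8.33 in the HFD mice and 8.22 to 9.03 in the HFD+WBM mice. The number that rose was 9 where 64 was added to the linear values and 8 with a prior variance that follows the level, and leaving out HFD replicate 3 gave 5, leaving out HFD+WBM replicate 1 gave 6.
Of 12 genes that glucocorticoids induce, Mt1 (2.34-fold) and Mt2 (3.06-fold), the metallothioneins, and Per1 rose (25% against 4.85%) and Lcn2 fell (8.33% against 6.90%), with a median log2 difference of 0.31. Glucocorticoids also act on Cebpd and Nfkbia. Neither passed, with 95% intervals (log2) of -0.34 to 0.99 for Cebpd and -0.32 to 0.51 for Nfkbia, which leave room for a rise. Whether glucocorticoids bear on the values of the members was not tested. Nor was it tested whether the early genes bear on those of Il6ra, Socs3 or Cebpb.

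Of the markers of other cells, 4 of 11 of stellate cells (median log2 difference -0.24) and 2 of 10 of sinusoidal endothelium (median -0.27) fell, 36.4% and 20% against the 6.90% of all genes, and none of either rose. These were the collagen genes Col1a1, Col1a2 and Col3a1 and the retinol-esterifying enzyme Lrat among the former, and Lyve1 and Cdh5 among the latter. Of 11 neutrophil markers Elane rose (9.09% against 4.85%) and no other passed (median 0.30). None of 9 lymphocyte, 6 cholangiocyte or 8 hepatocyte markers passed, with medians of -0.14, -0.27 and 0.09. Their part in the values of the members was not tested.

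**Figure D5:**
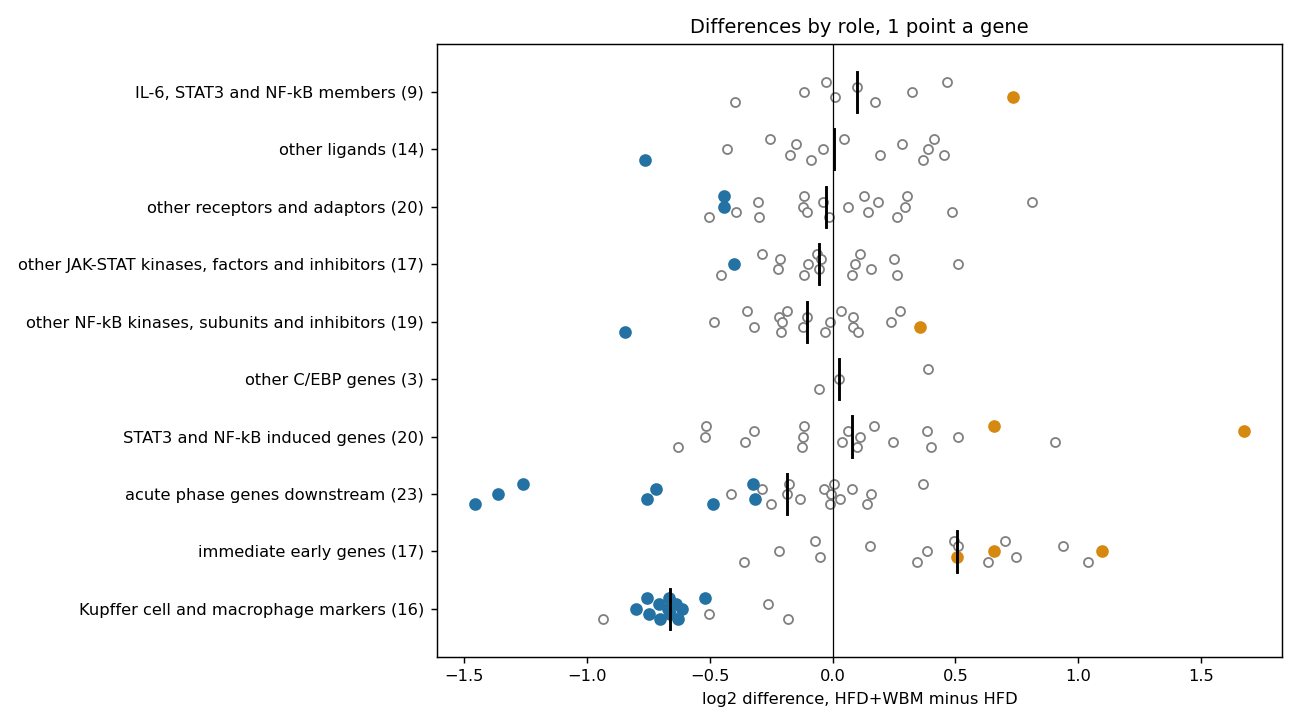
Log2 difference, HFD+WBM minus HFD (horizontal axis), of every measured gene by role, 1 point a gene, with the number of genes in brackets and the median as a black bar; blue points fell and orange points rose at p under 0.05 before adjustment, and open points did not pass. The signalling groups centre near 0, the macrophage markers centre on -0.66 and the early genes on 0.51.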

How the data were processed

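Diet and replicate number of each mouse came from the labels. Per the submitters' processing notes and the methods, the authors applied background correction, normalization and IterPLIER summarization to the arrays with release 1.8.6 of the Affymetrix tools, and deposited log2 values for 28944 rows. Neither an offset nor the exact scaling between arrays is stated in the sources read for this work.

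Of the rows, 21789 name 1 gene in the platform annotation, 1621 name several and 5534 are unnamed in it. The brightest row of each of 19938 genes was tested with limma 3.58.1 in R 4.3.3, diet as the only term, with Benjamini-Hochberg adjustment over all genes. Exact permutation tests used all 70 divisions of the 8 mice, or all pairings for correlations, over the 36 pairs of the 9 measured members. The tests were first tried on simulated data. The members, the lists by role and the rule for named genes (the members, Il6 and the 3 smallest p of each list) were chosen with earlier results of these data known. Orm1, Orm2, Apcs, Itih3, Cp, Per1 and Lrat were named after their values were seen, to complete a count. So were Saa3, Saa4, Fga, Fgb, Fgg, Hp and Hamp, to name acute phase genes that did not pass. Some lists share genes (Lcn2, Junb and Cd14 among them). Each array is taken as 1 mouse, the p-values for diet set the difference against the spread between these arrays, and the number of arrays limits the precision.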

Additional observations from a re-analysis of the deposited data

Results flagged for a closer look

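In the RefSeq row of Socs3, HFD+WBM replicate 3 was at 5.88 (log2 value) while the other 3 mice of its diet were at 7.11 to 7.25, a gap beyond Dixon's 95% critical value for 4 samples. The same was found for Cebpg in HFD replicate 4 (8.35, against 8.65 to 8.69) and in HFD+WBM replicate 2 (8.97, against 8.38 to 8.40), and for Pim1 in HFD+WBM replicate 1 (6.71, against 7.32 to 7.45). In all 114 groups of 4 values were examined for 57 genes, and 4 were set apart in this way, fewer than the 1 in 20 that chance gives. HFD+WBM replicate 1, which had the Il6ra value of an HFD mouse, was not set apart for Il6ra by this measure because the other HFD+WBM mice spread from 10.83 to 11.07.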

How the results depend on the processing

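Il6ra kept its direction and its side of p under 0.05 in all 19 other settings. Its log2 differences were 0.63 to 0.96, with an adjusted p of 0.028 (prior variance that follows the level) to 0.57. The mean of all rows of a gene and the RefSeq row of Socs3 could not move Il6ra, because its values stay the same there. The estimate of Il6ra was also fixed in advance with the brighter 50% of genes, the prior variance that follows the level and the equal-variance t-test. The same holds for the replicate block, and in all of these the p alone could change. No member was lower in any of the 19 settings. The number of members higher was 2 in place of 1 with an offset of 64 before the log, with the brighter 50% of genes alone, with a prior variance that follows the level and with the replicate block (each adding Cebpb), and also 2 with the mean of all rows of a gene and with Socs3 from its RefSeq row, a setting chosen after seeing the data. Leaving out each mouse gave 1 to 2 members higher and 0 lower. Of the other pathway genes, 3 to 6 were lower and 0 to 3 higher when each mouse was left out, and 2 were higher with an offset of 16 or 64, the brighter genes alone, the prior variance that follows the level or the replicate block. Stat3 turned to -0.0175 with array weights, and without 1 mouse it ran from -0.0900 (without HFD replicate 1) to 0.0589, also below 0 without HFD+WBM replicate 4. Tnf ran from -0.0939 to 0.0858 without 1 mouse, above 0 without HFD replicate 4 or HFD+WBM replicate 1, and the brighter row of Socs3 ran from -0.000362 (without HFD replicate 3) to 0.279. The RefSeq row of Socs3 missed p under 0.05 with the equal-variance t-test (0.051 before adjustment) and without HFD replicate 4, HFD+WBM replicate 1 or HFD+WBM replicate 4 (0.052 to 0.053). The cause of these moves was not tested. The replicate numbers do not pair the mice (correlations of deviations -0.12 to -0.02), and with the number as a block Cebpb had a log2 difference of 0.47 and p of 0.046 before adjustment.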
